A study of Mus musculus with 10 samples.

Results

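The nuclear receptors are a family of transcription factors, most of which bind DNA through zinc fingers and switch genes on or off when a small lipid-like ligand occupies them. Members were a list of 44 receptors, from which the clock receptors Nr1d1 and Nr1d2 had been left out, and each was followed through 1 probe set, the brightest annotated to that gene alone. Of the 44, 42 had such a probe set among 18193 measured genes, and Nr1h2 and Nr2e3 were not analysed here. In brown fat, PPARs pair with RXRs to drive the genes of lipid storage and burning, ERRs act on mitochondrial genes, and thyroid hormone acts through Thra and Thrb on heat production. The NR4A receptors are known as rapid responders to adrenergic signals, which reach the nucleus through cyclic AMP.

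Brown adipose tissue was profiled on Affymetrix arrays, on which sets of short probes read each transcript, in 5 wild-type (WT) samples and 5 samples labelled SIRT3 KO. SIRT3 is a mitochondrial deacetylase. All mice were littermates of about 1 year on a 129 background and received no treatment; the sources used here do not state the deleted part of the gene or the tissues in which it was deleted. Values are log2 signals, so a difference of 1 is a doubling, and errors after ± are standard deviations (SD) for means and standard errors for differences.

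The brown fat identity of the tissue was clear in both groups. Ucp1, the uncoupling protein of heat production, lay between 13.96 and 14.28 over the 10 arrays, and Cidea, a lipid droplet protein of brown fat, between 14.15 and 14.23. Other brown adipocyte markers varied more, such as Dio2, from 8.65 to 11.32 in WT, and Zic1, from 4.43 to 6.26 in KO arrays. Sirt3 itself read 10.03 to 10.28 in WT and 10.22 to 10.40 in arrays labelled KO, so its signal did not check the labels, and directions refer to labelled groups throughout. Skeletal muscle transcripts differed widely within both groups, with a mean over 20 markers between 7.69 and 11.55 in WT and between 5.62 and 11.06 in KO arrays. Means of 12 macrophage markers lay between 7.05 and 7.48 in WT and 6.93 and 7.31 in KO, those of 12 endothelial markers between 7.84 and 8.35 and between 8.22 and 8.33, and those of 10 fibroblast markers between 8.18 and 8.60 and between 7.96 and 8.71. In whole tissue, fewer cells of a type and less RNA per cell cannot be told apart.

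The brightest receptor signals came from Pparg and Ppara, followed by Esrra, Rxrb, Nr4a1, Nr3c1, Thra, Nr2f6 and Nr1h3. WT means covered a wide span, from 11.73 ± 0.04 (SD, n = 5) for Pparg down to 3.23 ± 0.17 (SD, n = 5) for Nr2f1. Signals of different probe sets also depend on how well their probes bind, so this is an order of signals and not of transcript numbers. As a yardstick for dim signal, 39 olfactory receptor genes had a median WT mean of 4.13 and a 95th percentile of 5.60. Of the 42 receptors, 30 lay above that percentile, and so did 11668 of all 18193 genes. Both counts rest on the brightest set of each gene. For Nr5a2 (6.23 against 4.55 for the next set), Ppard and Esrrb, among others, only the set used lay above that percentile.

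Only part of that order was firm. Of 41 pairs of neighbours in it, 19 were separated by more than their pooled WT SD and 22 were not, and in 10 pairs every WT array of the upper receptor lay above every WT array of the lower one. Pparg, Ppara, Esrra and Rxrb stood in a firm order in this sense. From Rxrb down through Nr4a1, Nr3c1, Thra, Nr2f6, Nr1h3, Nr2c2, Esr1, Rxrg, Rxra, Rora and Esrrg to Rarb, the WT arrays of neighbours overlapped. A clear step separated Rara, the dimmest receptor above the yardstick at 6.22, from Rorb at 5.52.

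The 12 receptors at or below the yardstick were Rorb, Nr5a1, Esr2, Nr0b1, Vdr, Nr1i3, Nr1i2, Nr1h4, Hnf4g, Pgr, Nr2e1 and Nr2f1. They include the bile acid receptor Nr1h4 (FXR), the xenobiotic receptors Nr1i2 (PXR) and Nr1i3 (CAR), the steroidogenic factor Nr5a1 and the vitamin D receptor Vdr, which are known mainly from liver, gut, adrenal, gonad or bone. Their WT means ran from 3.23 (Nr2f1) to 5.52 (Rorb). Hnf4a, the hepatocyte factor, lay above the yardstick with a WT mean of 6.56, as did Nr0b2 at 6.46 and Nr5a2 at 6.23. The other sets of Hnf4a had WT means of 6.435, 3.88 and 2.75, so its sets fell on both sides of the yardstick. The suffix of the Hnf4a set used marks possible matches to other transcripts. Hepatocyte markers, which include Alb, had list means between 5.40 and 5.62 over the 10 arrays, and steroidogenic cell markers between 5.50 and 5.62. Of 8 steroidogenic cell markers, 4 had WT means above the yardstick. A low signal here has no stated floor, so it does not show that a transcript was absent.

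**Figure D1:**
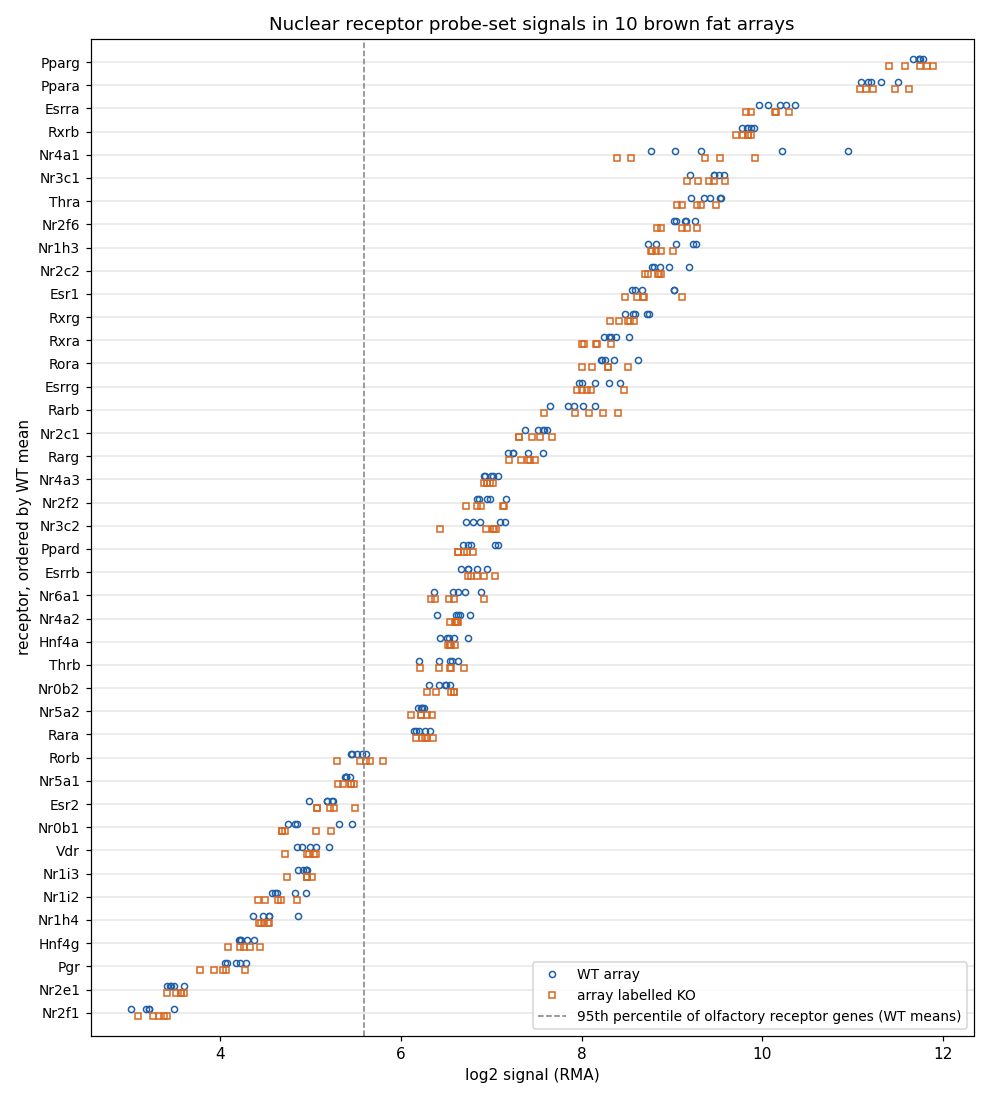
Log2 signal of the probe set of each of the 42 receptors in every array, WT as circles and arrays labelled KO as squares, ordered by WT mean; the dashed line is the 95th percentile (5.60) of 39 olfactory receptor genes. Pparg and Ppara lie highest, 12 receptors lie at or below the line, and Nr4a1 spreads over 2.56 log2 units.

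No receptor passed the test between arrays labelled KO and WT. By limma, 0 of 42 receptors had an adjusted p under 0.05, as did 0% of all 18193 genes, with adjusted p-values of 0.914 or more. Before adjustment, 1 receptor, Rxra, had a p under 0.05, or 2.38% of receptors, against 4.68% of all genes; 2.83% of genes were lower and 1.85% higher at that threshold, and Rxra was lower. No receptor had groups that did not overlap, against 0.627% of all genes. Means were lower in KO arrays for 28 receptors and higher for 14, with a median difference of -0.04; over all genes 56.1% were lower, with a median of -0.01. The count of lower receptors was 34 of 42 with the mean of skeletal muscle markers as a covariate (median -0.05), 24 to 31 when any 1 array was left out, and 21 of 42 without WT 4 and WT 5 (median -0.0045). All 20 skeletal muscle markers (median -1.61) and 9 of 10 fibroblast markers (median -0.17) also had lower means in KO arrays. So did 8 of 10 brown adipocyte markers (median -0.08) and 8 of 12 macrophage markers (median -0.13). By contrast, 10 of 12 endothelial markers (median 0.14) had higher means, and no marker of these lists passed the test. The part of these markers in the receptor values was not tested beyond the skeletal muscle covariate.

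By its brightest probe set, each receptor but Nr4a1 had a small difference. Apart from Nr4a1, no receptor differed by more than 0.22 log2 units, and the 95% confidence intervals of the other 41 lay between -0.52 and 0.44. The interval included 0 for 41 of 42 receptors. Other probe sets of some receptors gave wider values, up to 0.35 for Ppara (interval -0.07 to 0.77) and -0.34 for Nr4a2 (interval -0.75 to 0.06). The median SD within groups was 0.142 log2 units for receptors and 0.124 over all genes.

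**Figure D2:**
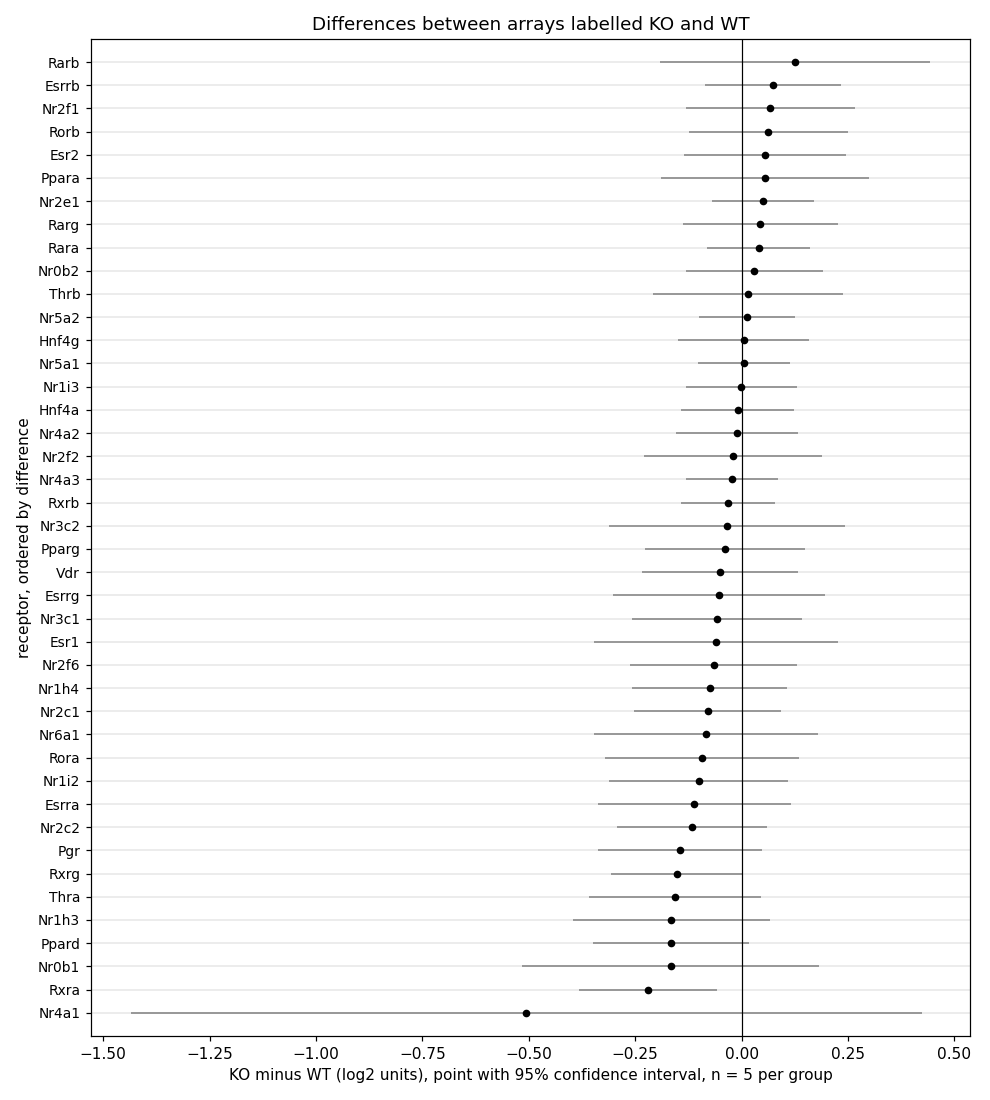
Difference between arrays labelled KO and WT in log2 units for 42 receptors, as points with 95% confidence intervals (n = 5 per group), ordered by size. Rxra is the 1 receptor whose interval leaves out 0, before adjustment, and Nr4a1 has the widest interval.

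The RXRs, DNA-binding partners of PPARs and of thyroid hormone, retinoic acid, vitamin D and oxysterol receptors, had lower means in KO arrays in all 3 members, and none passed the test. In array order, Rxra read 8.38, 8.25, 8.33, 8.52 and 8.30 in WT and 8.17, 8.33, 8.0, 8.16 and 8.03 in KO arrays. KO 2 alone reached into the WT range, and the other 4 KO arrays lay below every WT array. The difference was -0.22 ± 0.074 (unadjusted p = 0.013, adjusted p = 0.914 by limma), and it ranged from -0.27 to -0.18 when any 1 array was left out. It was -0.20 with the mean of skeletal muscle markers as a covariate and -0.18 without WT 4 and WT 5.

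The other probe sets of Rxra did not show this difference: the next brightest gave -0.04 and the dimmest 0.06, and the mean of all 3 gave -0.07 ± 0.057. Rxrg, the RXR of muscle and brown fat among other tissues, read 8.57, 8.48, 8.59, 8.72 and 8.75 in WT and 8.41, 8.58, 8.51, 8.32 and 8.54 in KO arrays. WT 4 and WT 5 were the highest, and without them its difference of -0.15 ± 0.071 was -0.08. Leaving out the highest WT arrays must shrink a negative difference, so this is no independent check. Rxrb was among the steadiest receptors, with a range of 0.20 over 10 arrays and a difference of -0.03 ± 0.050.

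PPARs sense fatty acids; Pparg is the master regulator of fat cell formation, and Ppara, more abundant in brown than in white fat, drives fatty acid oxidation. Pparg read 11.73, 11.74, 11.77, 11.67 and 11.73 in WT and 11.58, 11.40, 11.82, 11.74 and 11.89 in KO arrays. The WT arrays lay within 0.10 of each other, while KO arrays fell on both sides of them, and the difference was -0.04 ± 0.086. It was 0.03 without KO 2, the lowest array, whose removal had to raise it. The unequal spread was not tested.

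Ppara was read by 3 probe sets, which gave differences of 0.06 ± 0.11, 0.02 ± 0.14 and 0.35 ± 0.19 from the brightest to the dimmest. The dimmest read 9.03, 9.95, 9.05, 9.33 and 9.19 in WT and 9.52, 9.39, 9.86, 9.39 and 10.13 in KO arrays. WT 2 lay among the highest KO arrays, and the adjusted p of limma over all probe sets was 0.884. Ppard, the widely expressed PPAR, read 6.74, 6.78, 6.69, 7.08 and 7.04 in WT and 6.63, 6.70, 6.64, 6.73 and 6.80 in KO arrays. WT 4 and WT 5 stood above all others, and the difference of -0.17 ± 0.083 was -0.04 without them. Because they were the highest WT arrays, leaving them out had to shrink it.

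**Figure D3:**
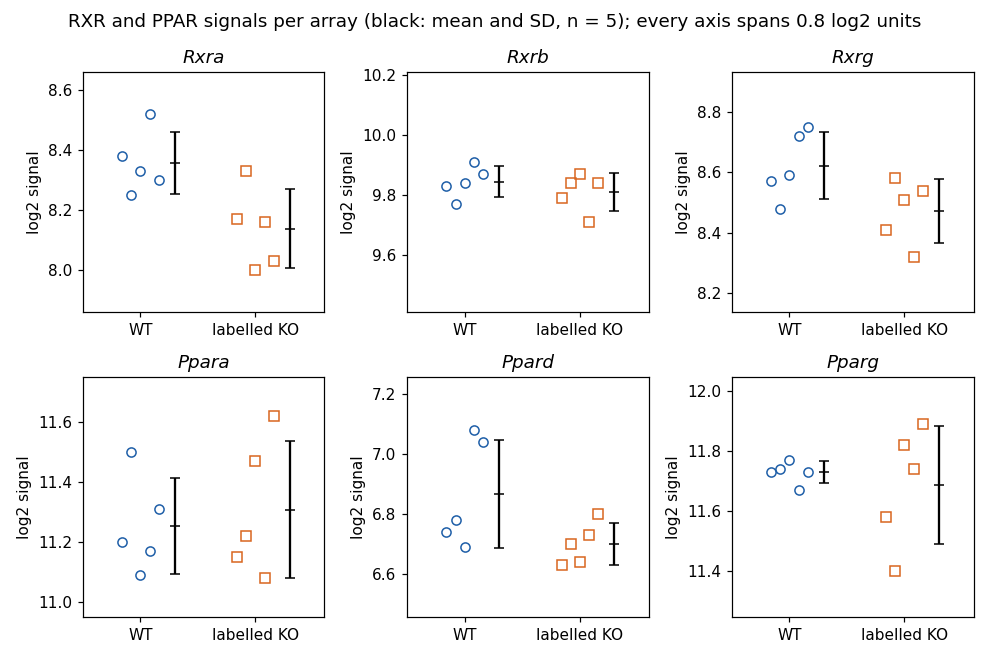
Log2 signal per array for 3 RXRs and 3 PPARs, WT as circles and arrays labelled KO as squares, with group mean and SD (n = 5) in black; each axis spans 0.8 log2 units. For Rxra 4 of 5 KO arrays lie below the lowest WT array, and for Ppard the separation comes from 2 WT arrays.

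Genes known as PPAR targets were split evenly: of 17 measured, 9 had higher and 8 lower means in KO arrays, with a median of 0.00007 and 0 past the test. Adipoq, the adipocyte hormone adiponectin, differed by -0.14 ± 0.059, and Fgf21, a metabolic hormone, by 0.20 ± 0.099. One in the list, Adipoq, had an unadjusted p under 0.05, or 5.88% of the list against 4.68% of all genes.

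The ERRs are orphan receptors, with no settled natural ligand, that drive mitochondrial genes together with PGC-1 coactivators. Esrra, the brightest, read 10.06, 9.96, 10.26, 10.36 and 10.19 in WT and 10.29, 10.14, 10.15, 9.87 and 9.82 in KO arrays. KO 4 and KO 5 were the lowest, and the difference was -0.11 ± 0.10. Esrrg differed by -0.05 ± 0.11, and by 0.08 without WT 4 and WT 5. These were its highest WT arrays, so leaving them out had to raise the difference. Esrrb, read at 6.79 in WT by a set whose suffix marks possible matches to other transcripts, differed by 0.07. Of 15 measured ERR targets 7 were higher and 8 lower, with a median of -0.01 and 0 past the test. Ckmt2, a mitochondrial creatine kinase, had the widest difference of them at -1.37 ± 1.3. Its signal was 7.74 in WT 4, 5.00 in WT 5, 3.73 in KO 1 and 4.10 in KO 3, the arrays with 9.52, 7.69, 5.85 and 5.62 as means of skeletal muscle markers. Uqcrc1, a subunit of respiratory complex III, differed by 0.07 ± 0.047.

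Thyroid hormone receptors gave no difference past the test. Thra, the brighter of the pair, read 9.54, 9.35, 9.53, 9.21 and 9.42 in WT and 9.49, 9.28, 9.32, 9.11 and 9.06 in KO arrays. Groups overlapped, and the difference of -0.16 ± 0.092 was -0.22 without WT 4 and WT 5; its other probe sets gave -0.12 and 0.04. Thrb, read at 6.47 ± 0.17 (SD, n = 5) in WT and 6.49 ± 0.18 (SD, n = 5) in KO arrays, differed by 0.02 ± 0.10, with a sign that turned without WT 2, KO 1 or KO 3. In the list of thyroid hormone handling and response 2 of 9 genes were higher and 7 lower, with a median of -0.01 and 0 past the test. The lipogenic malic enzyme Me1 differed by 0.51 ± 0.24 and Ucp1 by -0.08 ± 0.061.

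Retinoic acid receptors were led by Rarb, itself a known target of retinoic acid, which ranged from 7.65 to 8.15 in WT and from 7.58 to 8.40 in KO arrays. Its difference, 0.13 ± 0.14, was the highest of the 42. Rarg differed by 0.04 and Rara by 0.04, and none passed. Of 13 retinoid handling and response genes 8 were higher and 5 lower, with a median of 0.0077; Lrat, which esterifies retinol, differed by 0.12 ± 0.053 at a dim WT mean of 3.30, and the transglutaminase Tgm2 by 0.22 ± 0.11. None passed the test.

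Among steroid receptors, Nr3c1, the glucocorticoid receptor, gave the brightest signal. It read 9.58, 9.20, 9.52, 9.46 and 9.46 in WT and 9.59, 9.46, 9.41, 9.29 and 9.17 in KO arrays, fully overlapping, with a difference of -0.06 ± 0.091. Its 6 probe sets gave differences between -0.07 and 0.23, and the mean over them was 0.02. Nr3c2, the mineralocorticoid receptor, differed by -0.03 and was lowest in KO 5, at 6.44. Esr1, the oestrogen receptor alpha, ranged from 8.56 to 9.02 in WT and from 8.48 to 9.11 in KO arrays, while Esr2 and the progesterone receptor Pgr were below the yardstick. Pgr, at a WT mean of 4.17, differed by -0.14 ± 0.088. Glucocorticoid handling and response genes gave 5 higher and 8 lower of 13, with a median of -0.02 and 0 past the test; Lcn2 differed by 0.52 ± 0.25 and Angptl4, an inhibitor of lipoprotein lipase, by 0.52 ± 0.27.

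Nr1h3, the oxysterol receptor LXR alpha, read 8.82, 8.73, 9.04, 9.27 and 9.23 in WT and 9.01, 8.88, 8.77, 8.78 and 8.82 in KO arrays. WT 3, WT 4 and WT 5 lay above all KO arrays, WT 1 lay among them and WT 2 below them. The difference was -0.17 ± 0.11, and -0.0095 without WT 4 and WT 5, its highest arrays, whose removal had to shrink it. Of the dim xenobiotic receptors, Nr1i2 differed by -0.10 ± 0.096, with overlapping groups. Of 9 measured LXR targets 7 were higher and 2 lower in KO arrays, with a median of 0.05; Smpdl3a, a phosphodiesterase, differed by -0.19 ± 0.091 and the desaturase Scd1 by 0.07 ± 0.061, and none passed.

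The orphan receptors of the COUP-TF and TR2/TR4 branches are mostly known as repressors. Nr2f6 and the TR4 receptor Nr2c2 were among the 10 brightest, and Nr2c2 read 8.97, 8.87, 8.78, 9.19 and 8.80 in WT and 8.88, 8.86, 8.74, 8.85 and 8.70 in KO arrays. WT 4 was its highest array, and the difference of -0.12 ± 0.080 was 0.02 when the mean of its 6 probe sets was used. Rora, which binds as a monomer and also acts on clock genes, was read by 9 probe sets, the most of any receptor, with differences between -0.10 and 0.05. The left-out clock receptors Nr1d1 and Nr1d2 differed by 0.19 ± 0.13 and -0.09 ± 0.15. Hnf4a, the hepatocyte factor, read 6.56 in WT and differed by -0.0094. Of 9 hepatocyte markers, 4 had WT means above the olfactory yardstick and 5 did not; Alb, the albumin gene, lay between 3.93 and 4.59.

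Coregulators are the proteins through which receptors switch genes on or off. Of 20 measured, 7 were higher and 13 lower in KO arrays, or 65% lower against 56.1% of all genes, with a median of -0.06 and 0 past the test. Tbl1x, part of the NCOR corepressor complex, differed by -0.16 ± 0.074, and Ep300, a histone acetyltransferase, by -0.15 ± 0.078. No coregulator had an unadjusted p under 0.05, against 4.68% of all genes.

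The NR4A receptors are orphans whose activity follows their amount, and cyclic AMP induces them through CREB, a factor that binds TGACGTCA and its core TGACG. Because Nr4a1 was the receptor that varied most between arrays, the 250 bases before the start site of each NR4A gene are shown 5′ to 3′ from RefSeq (GRCm38.p6), with every TGACG on either strand (CGTCA on the strand shown) in capitals. The windows lie at chr15:101266596-101266845 on the plus strand (Nr4a1), chr2:57124004-57124253 on the minus strand (Nr4a2) and chr4:48045055-48045304 on the plus strand (Nr4a3).
Nr4a1: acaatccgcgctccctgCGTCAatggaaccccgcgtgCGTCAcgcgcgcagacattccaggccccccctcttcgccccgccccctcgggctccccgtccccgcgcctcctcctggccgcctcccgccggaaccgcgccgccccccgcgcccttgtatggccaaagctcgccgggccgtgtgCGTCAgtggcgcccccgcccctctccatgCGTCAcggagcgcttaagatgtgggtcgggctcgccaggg
Nr4a2: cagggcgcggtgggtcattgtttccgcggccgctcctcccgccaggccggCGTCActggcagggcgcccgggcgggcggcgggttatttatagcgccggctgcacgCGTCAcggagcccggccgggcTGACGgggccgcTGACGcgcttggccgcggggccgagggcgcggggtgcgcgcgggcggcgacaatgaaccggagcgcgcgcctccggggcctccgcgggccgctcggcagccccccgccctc
Nr4a3: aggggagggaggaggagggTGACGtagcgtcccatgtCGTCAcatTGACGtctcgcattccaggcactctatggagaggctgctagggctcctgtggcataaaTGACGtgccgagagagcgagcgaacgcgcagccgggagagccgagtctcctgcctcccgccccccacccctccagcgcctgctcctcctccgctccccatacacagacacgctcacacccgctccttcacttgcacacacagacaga

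Each of the 3 windows held 4 matches to TGACG. At least 4 matches occurred in 0.137% of all 32851 promoter windows of the same length, and at least 1 in 17.8%; a palindromic TGACGTCA counts as 2 matches. None of the 3 held the full TGACGTCA, which occurred in 1.55% of all windows and in that of 1 receptor, Nr2e1. Promoter windows were at hand for 40 of the 44 listed receptors, and 13 of these had TGACG in at least 1 window, or 21.3% of their 61 windows against the 17.8% of all. AGGTCA, the core element to which many receptors bind, on either strand, stood in windows of 9 of the 40, among them Pparg, Rxra, Rxrg and Thrb, or in 16.4% of receptor windows against 14.0% of all. These matches describe the letters of the reference and not binding.

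Nr4a1 read 10.22, 8.77, 9.03, 10.95 and 9.32 in WT and 9.92, 9.53, 8.55, 9.37 and 8.39 in KO arrays. It spanned 2.56 log2 units over the 10 arrays, and its SD within groups, 0.79, was higher than that of 99.2% of all genes. The median span of the 42 receptors was 0.49, and Nr4a1 was the 1 receptor above 1. Both the highest array, WT 4, and the next, WT 1, were WT, while other WT arrays overlapped KO arrays. The difference was -0.51 ± 0.42, and -0.18 without WT 4, whose removal had to shrink it.

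The brightest probe sets of Nr4a2 and Nr4a3 barely varied, with spans of 0.37 and 0.16, but other sets of the same genes did. The most variable set of Nr4a2 read 6.37, 5.92, 6.28, 6.68 and 6.90 in WT and 6.45, 6.31, 6.01, 6.02 and 5.65 in KO arrays. The most variable set of Nr4a3 read 5.31, 5.98, 5.86, 7.03 and 6.63 in WT and 6.18, 6.06, 6.46, 6.83 and 6.10 in KO arrays. WT 4 was the highest array for Nr4a1 and for this set of Nr4a3, but WT 1, high for Nr4a1, was the lowest for Nr4a3. The differences were -0.34 ± 0.19 for the variable set of Nr4a2 and 0.17 ± 0.28 for that of Nr4a3, against -0.01 ± 0.065 and -0.02 ± 0.049 for the brightest sets, and none passed.

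Nr4a1 and the other immediate early genes were set side by side array by array. The mean of 23 such genes, none of them a receptor, was 8.56, 7.67, 7.12, 7.53 and 7.05 in WT and 8.21, 7.81, 8.04, 8.65 and 7.70 in KO arrays. In WT 4, where Nr4a1 was highest, Fosb, an AP-1 subunit, was at its lowest with 3.63, while Egr1, a zinc finger factor, was at 9.82, Ier2 at 9.11 and the phosphatase gene Dusp1 at 11.76, each among the higher arrays for that gene. In WT 1, the next highest for Nr4a1, AP-1 genes were high too, with Fos at 11.53, Fosb at 9.16 and Egr1 at 11.24. Of the 23, 21 had higher means in KO arrays, with a median of 0.39, and the mean of Nr4a1 was lower; of all 18193 genes, 7994 had higher means. Before adjustment 8 of the 23, or 34.8%, had a p under 0.05, all higher, against 4.68% of all genes (1.85% higher), and none passed over all genes. Atf3, a stress-induced factor, differed by 0.93 ± 0.20 and Fosl2, an AP-1 subunit, by 0.57 ± 0.15.

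**Figure D4:**
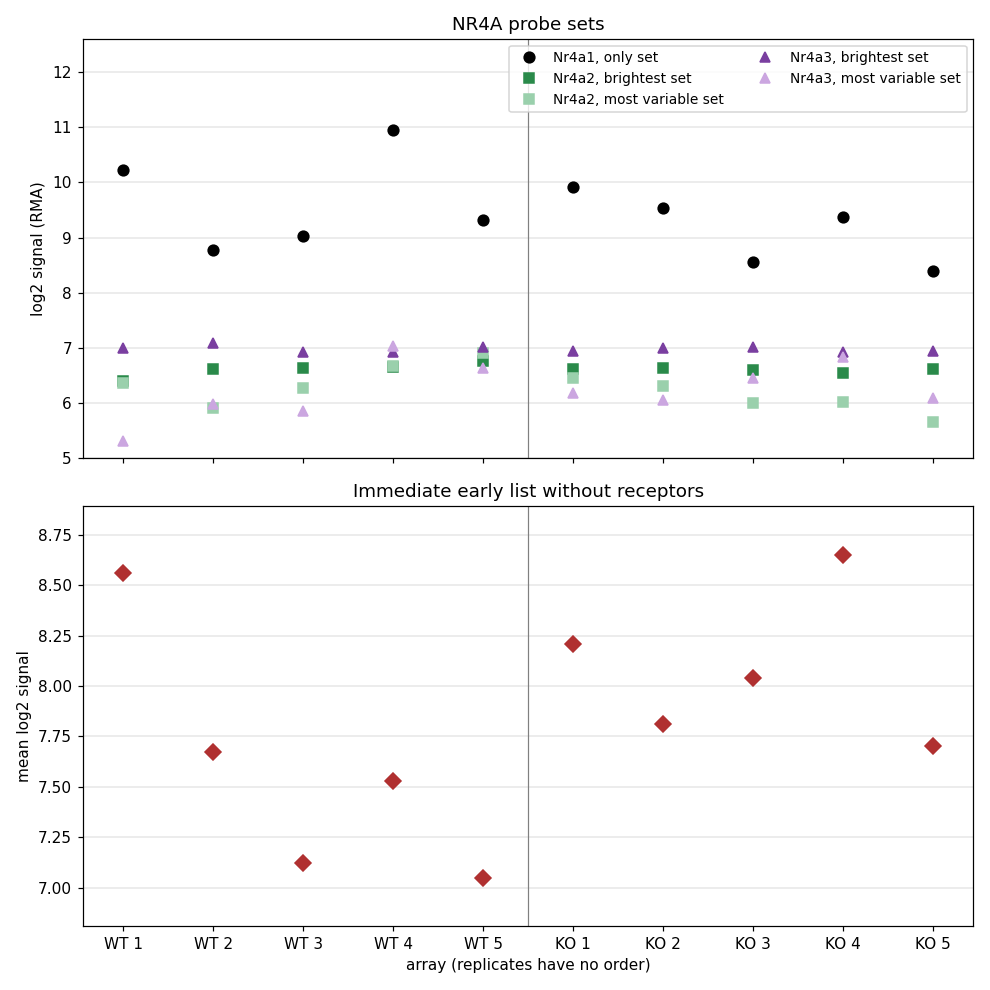
Log2 signal of 5 NR4A probe sets (upper panel) and mean log2 signal of 23 immediate early genes (lower panel) in each array, with a grey line between WT and arrays labelled KO. Nr4a1 is highest in WT 4, at 10.95, where the immediate early mean is 7.53, below all KO arrays.

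Slopes on 2 groups of transcripts that varied between arrays were fitted beside genotype. On the immediate early mean, 0 of 42 receptors and 0% of 18170 genes had a slope past the test by limma. At an unadjusted p under 0.05 there were 3 receptors, Nr4a2, Rarg and Nr2f1, or 7.14% against 8.4% of all genes. The slope of Nr4a1 was 0.64 ± 0.45, with a 95% confidence interval from -0.35 to 1.64, and that of the brightest set of Nr4a2 -0.17 ± 0.055, in log2 units per log2 unit of the list.

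On the mean of skeletal muscle markers, 0 of 42 receptors had a slope past the test, against 1.07% of 18173 genes. At an unadjusted p under 0.05 there were 6 receptors, or 14.3% against 10.7% of all genes, and all 6 were brighter where muscle transcripts were low. They were Nr1i2 (-0.055 ± 0.018), Thrb (-0.054 ± 0.020), Nr0b1 (-0.083 ± 0.032), Esrrb (-0.037 ± 0.015), Rorb (-0.043 ± 0.018) and Esrra (-0.049 ± 0.022). Of them, Nr1i2, Nr0b1 and Rorb lay below the olfactory yardstick, and the set of Esrrb may match other transcripts. The muscle mean was 7.69 in WT 5, 5.85 in KO 1 and 5.62 in KO 3, and 9.52 or more in the other arrays. The slopes therefore rest largely on WT 5, KO 1 and KO 3. Slopes were negative for 32 of 42 receptors, or 76.2% against 58.2% of all genes. The slope of Nr0b1 passed without WT 3 (-0.10, adjusted p = 0.047) and that of Esr1 without KO 1 (-0.10, adjusted p = 0.043).

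**Figure D5:**
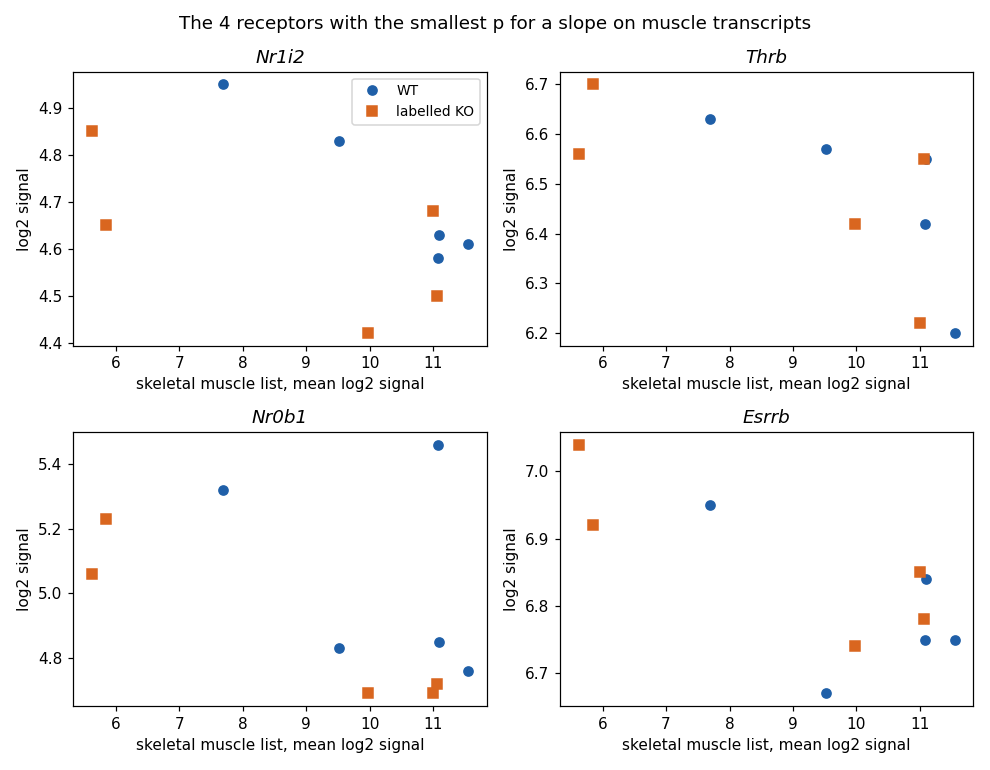
Log2 signal of the 4 receptors with the smallest unadjusted p for a slope on muscle transcripts (Nr1i2, Thrb, Nr0b1 and Esrrb) against the mean log2 signal of 20 skeletal muscle markers, WT as circles and arrays labelled KO as squares. The signals tend to be lower to the right, over at most 0.77 log2 units, and no slope passed the test. Nr1i2 and Nr0b1 lie below the olfactory yardstick.

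Agreement between probe sets of a receptor limited these readings. The 42 receptors had 112 probe sets, 15 receptors having 1 and 27 having several, and in 19 of the 27 at least 1 set had a difference of opposite sign to the set used. Tested together with all 34945 probe sets of single genes, 0 of the 112 passed by limma, as did 0% of all, and 4, or 3.57%, had an unadjusted p under 0.05 against 5.41% of all. The 4 were the set of Rxra used here and other sets of Esr1 (0.15 ± 0.053), Nr2c2 (0.24 ± 0.10) and Nr3c1 (0.23 ± 0.100), the last 3 higher in KO arrays. In each of these 3 genes the brightest set gave a difference of the opposite sign.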

How the data were processed

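The deposited values are log2 signals that the authors made with RMA, per the submitters' processing notes; the sources used here name no software, version or settings. That the scale is log2 was taken from the range of the values, with array medians between 5.58 and 5.61. RMA makes array distributions alike, so a shift shared by most genes would not be visible, and it gives no detection call. The number of arrays limits the precision.

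Groups and replicate numbers came from the sample titles. Of 45101 probe sets, 64 controls, 932 with several genes and 9160 with none were left out, and names were updated through the RefSeq gene table by gene ID, which 34741 of the other 34945 matched. Each of 18193 genes was represented by its brightest set, by the mean of the 10 arrays. Pairwise correlations of arrays were 0.988 to 0.997. Differences are KO minus WT. They were tested two-sided with limma 3.58.1 (lmFit, eBayes; R 4.3.3), with no covariate, and p-values were Benjamini-Hochberg adjusted across the 18193 genes, with a threshold of 0.05; the code was tested on simulated data. Nothing says beyond the word littermate that samples are separate mice, and p-values then measure only the spread between these samples.

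Receptors described with differences were the 10 with the smallest unadjusted p and 14 with known roles in brown fat, 17 in all after overlap, and any called by slope; other differences are given for completeness. Of each pathway list, the 2 genes with the smallest unadjusted p are named; Fos, Fosb, Egr1, Ier2 and Dusp1 beyond that rule, and the extra probe sets, were chosen after their values were seen. The receptors and lists were chosen with earlier results of these data known. Alternatives covered probe-set choice, normalization, centring, a filter on dim genes, the variance model, array weights, the replicate number, 2 covariates and left-out arrays. Promoter windows came from RefSeq (GRCm38.p6), and 1271 of 1271 overlapping windows on opposite strands matched when read on the gene's strand. Figures were drawn with matplotlib 3.10.9.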

Additional observations from a re-analysis of the deposited data

Results flagged for a closer look

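In 5 of 90 groups of 5 arrays checked, 1 array stood farther from its nearest neighbour than a 95% limit for a group of this size allows, which chance gives in about 1 of 20 groups. Nr3c2 was lowest in KO 5 at 6.44, and Vdr was lowest in KO 2 at 4.72. Nr1i3 was lowest in KO 4 at 4.74, Esr2 was lowest in WT 4 at 4.99, and Nr5a1 was highest in WT 5 at 5.44. The last 4 receptors lay below the olfactory yardstick of 5.60.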

How the results depend on the processing

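The count of receptors past the test was 0 under every alternative run, and so was the count of genes. Receptors at an unadjusted p under 0.05 numbered 1 of 42 in the reported fit, against 4.68% of all genes. With the replicate block there were 3 (Ppard, Rxra and Thra), against 4.05% of all genes. With the skeletal muscle covariate there were 3 (Rxra, Rxrg and Nr1i2), against 8.28%, and without WT 4 and WT 5 there were 0, against 3.88%. When every probe set was tested, an alternative added after seeing the data, there were 4, or 3.57% of receptor probe sets against 5.41% of all. Leaving out 1 array gave 1 to 3: Rxra each time, joined by Rxrg and Nr1h3 without WT 2, by Ppard without WT 1 or WT 3, by Thra without WT 4 or KO 1, by Rxrg without KO 2 or KO 5 and by Pgr without KO 3. Over all genes the shares at that threshold ran from 3.36% (without KO 4) to 7.79% (without WT 2). With the mean of all probe sets the 1 receptor was Rxrg, beside 4.89% of all genes. Counts of slopes past the test were 0 throughout, except 0 to 1 for skeletal muscle when 1 array was left out. Replicate numbers are shared by label only: correlations of paired deviations ran from -0.395 (WT 3 and KO 3) to 0.236 (WT 2 and KO 2), and no WT array correlated best with its own number.

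Signs turned with the mean of all probe sets for Nr2c2 (0.022), Nr3c1 (0.020) and Nr4a3 (0.072), with the most variable probe set, added after seeing the data, for Nr4a3 (0.17), and with the muscle covariate for Thrb (-0.065). They turned with the immediate early covariate for Esrrg (0.063) and Nr4a2 (0.071), and without WT 4 and WT 5 for Nr1i2 (0.011), Esrrg (0.076) and Nr4a2 (0.056). WT 4 and WT 5 were the highest WT arrays for Nr1i2, Esrrg and Nr4a2. Leaving them out had to raise these negative differences, so it is no independent check. Leaving out 1 array gave ranges of -0.053 to 0.083 for Thrb, -0.14 to 0.012 for Esrrg, -0.064 to 0.028 for Nr4a2, -0.089 to 0.033 for Pparg and -0.023 to 0.12 for Ppara. The other 8 of the 17 receptors followed through the alternatives kept their sign in each fit of 1 value per gene. Among their single probe sets, other sets of Rxra (0.06), Thra (0.04) and Pgr (0.02) had the opposite sign. The causes were not tested. Signals near the yardstick limit what can be said of dim receptors.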
